A study of Mus musculus with 4 samples.

Results

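T cells whose T cell receptor beta chain (TRB) was found in at least 2 cells of the same library were examined here as cells of expanded clones. A clone was the set of nucleotide sequences of the productive, high-confidence TRB complementarity-determining regions 3 (CDR3) read in a barcode of the receptor library. Barcodes were kept with at least 1000 RNA molecules (unique molecular identifiers, UMIs), 500 genes, at most 10% mitochondrial UMIs and at least 1 UMI of Cd3d, Cd3e or Cd3g. By this rule 133 cells were members, 111 in the KO-labelled and 22 in the WT-labelled library, of 7581 barcodes that passed the cell filter (3211 KO-labelled and 4370 WT-labelled). They were compared with cells of clones seen in 1 cell only, 148 in the KO-labelled and 198 in the WT-labelled library. The members were chosen by the receptor contigs and the Cd3 transcripts, so neither is a finding.

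The cells came from B16 melanomas, tumours of a transplantable mouse melanoma line, taken on day 12 after implantation into male C57BL/6 mice. The mice were labelled as ATPIF1 knock-out or as wild-type, and 6 mice are stated without saying whether this is per genotype. Tumour suspensions of each genotype were mixed, CD45-positive leukocytes were sorted, and each mixture gave 1 droplet-based 5′ RNA library and 1 receptor library. Because mice were mixed and cells cannot be assigned to a mouse, a clone may come from 1 mouse, there is no replicate, and no difference between libraries was tested.

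Each T cell builds its receptor from V, D and J segments, and the junction of these segments forms the CDR3, which the daughters of a dividing cell inherit. An identical CDR3 in several cells is therefore read as a sign of clonal expansion. In tumours, expanded CD8 T cells are known for transcripts of killing (granzymes, perforin, Nkg7), of effector chemokines and cytokines (Ccl5, Xcl1, Ifng) and of the inhibitory receptors that accumulate under chronic stimulation (Pdcd1, Lag3, Havcr2). Atpif1 encodes the inhibitory factor of the mitochondrial F1Fo-ATP synthase.

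TRB CDR3 sequences of expanded clones are shown first because they define the members: the 5 largest clones of the KO-labelled library, and WT-labelled clones 1, 3 and 4 of 3 cells and clone 5 of 2. WT-labelled clone 2, also of 3 cells, is shown further on beside a KO-labelled clone. The locus lies on mouse chromosome 6. Each sequence runs 5′ to 3′ from the conserved cysteine codon to the last codon of the CDR3. Capitals mark the bases outside the stretch that most CDR3s of the same V segment share at the 5′ end and of the same J segment at the 3′ end.
KO-labelled clone 1, TRBV10 with TRBJ2-1: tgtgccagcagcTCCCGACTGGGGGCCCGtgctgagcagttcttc
KO-labelled clone 2, TRBV29 with TRBJ2-7: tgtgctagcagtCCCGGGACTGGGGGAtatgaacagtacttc
KO-labelled clone 3, TRBV12-2+TRBV13-2 with TRBJ1-1: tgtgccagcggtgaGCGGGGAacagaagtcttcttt
KO-labelled clone 4, TRBV16 with TRBJ2-7: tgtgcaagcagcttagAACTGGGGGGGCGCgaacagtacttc
KO-labelled clone 5, TRBV20 with TRBJ2-2: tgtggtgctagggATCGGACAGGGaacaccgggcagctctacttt
WT-labelled clone 1, TRBV2 with TRBJ2-3: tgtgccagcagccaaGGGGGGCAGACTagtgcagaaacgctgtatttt
WT-labelled clone 3, TRBV3 with TRBJ1-1: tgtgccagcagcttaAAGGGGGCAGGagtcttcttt
WT-labelled clone 4, TRBV19 with TRBJ1-3: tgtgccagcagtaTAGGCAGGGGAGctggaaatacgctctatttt
WT-labelled clone 5, TRBV1 with TRBJ1-6: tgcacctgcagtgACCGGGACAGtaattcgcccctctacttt
The marked junctions of the clones shown here differ in letters and length, from 7 bases in KO-labelled clone 3 to 17 in KO-labelled clone 1, while that of WT-labelled clone 2 has 2. The 16 CDR3s of the KO-labelled expanded clones had a median of 42 bases (33 to 45) and used 10 V segments, and those of clones seen once also had a median of 42. The 10 CDR3s of the WT-labelled expanded clones had a median of 40.5 bases (33 to 54), against 42 in clones seen once. No TRB nucleotide sequence occurred in both libraries.

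The targeted gene was looked at first. Atpif1 (ENSMUSG00000054428, chromosome 4, 132530555 to 132535450 in GRCm38) had 679 CPM (UMIs of the gene per 1e6 UMIs; 668 to 692, 95% Poisson interval) over all cells of the KO-labelled library and 576 (567 to 585) over those of the WT-labelled library. Cells of expanded clones had 414 CPM (370 to 463) of Atpif1 in the KO-labelled library, in 80 of 111 cells, and 196 CPM (116 to 310) in the WT-labelled library, in 7 of 22 cells. The transcript was thus present, and higher, in the library labelled KO, which goes against that label. The labels do not say which part of the gene was deleted, so the count of a 5′ library does not check it, and the libraries are called by their labels throughout. All intervals here are 95% intervals that cover counting error only.

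Expanded clones made up more of the T cells with a TRB in the KO-labelled library. There 111 of 259 TRB cells (42.9%, 36.7 to 49.1, exact Clopper-Pearson) belonged to 16 expanded clones of 164 clones, against 22 of 220 TRB cells (10.0%, 6.37 to 14.7) in 9 of 207 clones in the WT-labelled library. The KO-labelled clones held 26, 21, 13, 8, 8, 7, 6, 4, 3 and 3 cells, followed by 6 clones of 2 cells. The WT-labelled library had 4 clones of 3 cells and 5 clones of 2. The largest clone took 10.0% of the TRB cells in the KO-labelled library and 1.36% in the WT-labelled library, and the 3 largest took 23.2% and 4.09%. Without its 3 largest clones the share in the KO-labelled library was 25.6%. In the WT-labelled library, without clones 1, 2 and 3 of the 4 clones of 3 cells, it was 6.16%. A TRB was read in 259 of 1150 Cd3-positive cells (22.5%) of the KO-labelled library and in 220 of 875 (25.1%) of the WT-labelled library. By gate it was read in 34.7% and 29.6% of CD8-gated, 25.2% and 37.3% of Cd4-gated and 10.97% and 19.5% of cells with neither transcript, and the part of these rates in the clone sizes was not tested.

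**Figure D1:**
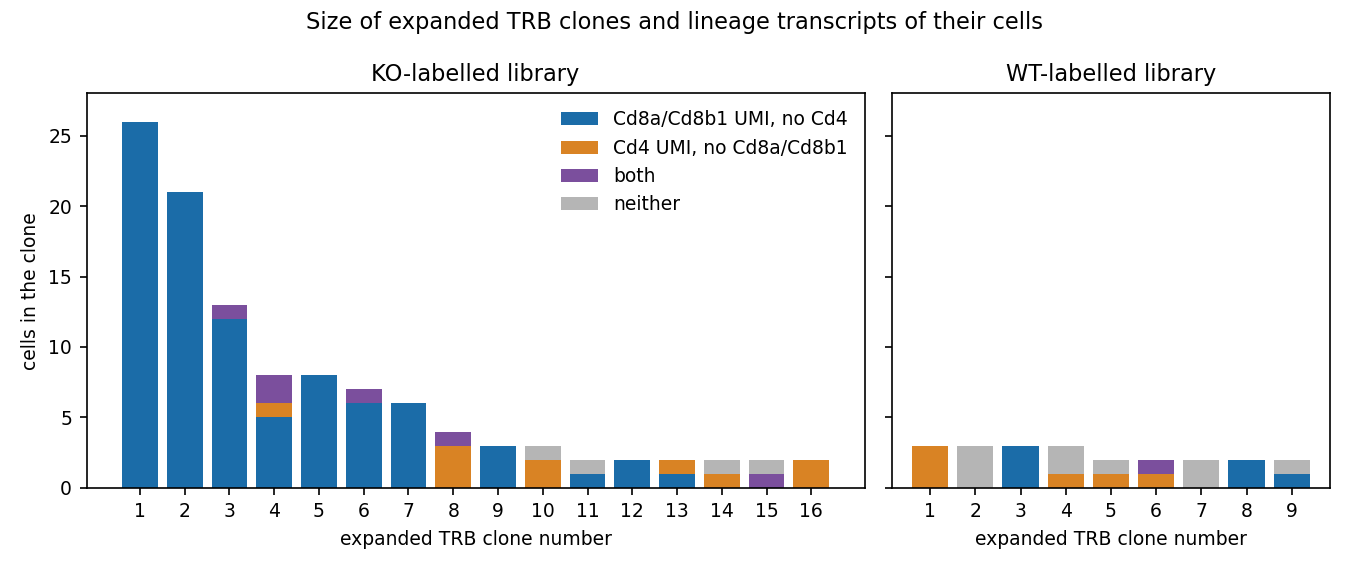
Cells per expanded TRB clone (vertical axis) for each clone (horizontal axis), in the KO-labelled library on the left and the WT-labelled library on the right, coloured by the lineage transcripts of the cells. The largest KO-labelled clones, of 26, 21 and 13 cells, are almost wholly of cells with Cd8a or Cd8b1 and no Cd4 UMI, and no WT-labelled clone exceeds 3 cells.

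Most expanded cells of the KO-labelled library had CD8 transcripts, and most of the WT-labelled library did not. Of the expanded cells, 91 of 111 (82.0%, 73.6 to 88.6) in the KO-labelled library and 6 of 22 (27.3%, 10.7 to 50.2) in the WT-labelled library had a UMI of Cd8a or Cd8b1, the subunits of the CD8 co-receptor, and none of Cd4. Among clones seen once the same gate held 62 of 148 cells (41.9%) in the KO-labelled and 83 of 198 (41.9%) in the WT-labelled library. Of the TRB cells in this gate, 91 of 153 (59.5%, 51.3 to 67.3) were in expanded clones in the KO-labelled library, against 6 of 89 (6.74%, 2.51 to 14.1) in the WT-labelled library. Cells with Cd4 and no CD8 UMI gave 10 of 36 (27.8%, 14.2 to 45.2) and 6 of 31 (19.4%, 7.45 to 37.5), intervals that overlap. KO-labelled clones 1, 2, 5, 7, 9 and 12 consisted of CD8-gated cells alone, and clones 3, 4 and 6 held 12 of 13, 5 of 8 and 6 of 7 of them. Clones 8, 10, 14 and 16 held Cd4-gated cells and no CD8-gated cell. Clone 13 held 1 cell of each gate, clone 11 held 1 CD8-gated cell and 1 with neither transcript, and clone 15 had no cell in either gate.

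The RNA library and the alpha chains, neither of which the rule used, were set beside the clones. Outside TRBV10, the most abundant Trbv transcript matched the contig's V segment in 81 of 81 expanded cells with a Trbv UMI in the KO-labelled library and in 19 of 19 in the WT-labelled library. All 27 KO-labelled and 3 WT-labelled expanded cells with a TRBV10 contig and a Trbv UMI had Trbv4 as the leading Trbv transcript, so the name differs between the files for each of them. Among pairs of cells of 1 clone that both had an alpha chain (TRA), 165 of 238 (69.3%) shared a TRA sequence in the KO-labelled library and 9 of 9 in the WT-labelled library, against 7 of 6432 and 5 of 4362 pairs from different clones. A TRA was read in 55 of 111 KO-labelled expanded cells. Most KO-labelled pairs within clones came from clones 1 and 2, with 15 such cells each, so the pairs are not independent. Clones 8 to 16 had at most 1 such cell each and gave no pair. KO-labelled clone 1 carried a pair of TRA sequences, in 12 and in 6 cells and both in 3, and clone 2 likewise in 9 and 8 cells and both in 2. No expanded cell of the KO-labelled library had more than 1 TRB (0 of 111, which allows up to 3.27%), and 2 of 22 did in the WT-labelled library. No barcode of a TRB cell occurred in both libraries, while 29 barcodes did among all cells.

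The expanded cells were T cells by their transcripts and carried fewer transcripts of other leukocytes than cells of clones seen once. The 9 T cell genes of a marker list, some of which entered the rule, took 0.507% of the UMIs of expanded cells against 0.316% of cells seen once in the KO-labelled library, and 0.506% against 0.320% in the WT-labelled library. In KO-labelled expanded cells the NK receptors Ncr1, Klrb1c, Klra8, Klra4, Klra9 and Klra1, the B cell genes Ms4a1, Ighd and Pax5 and all 4 haemoglobin genes were at 0. Of these, Ncr1, Klra8, Klra4, Pax5 and the haemoglobin gene Hba-a2 were at 0 in KO-labelled cells seen once too, so they do not separate the sides. In the expanded cells the NK list still held 548 UMIs (0.0730%, against 0.184% in clones seen once), 296 of them of Tyrobp and 208 of Fcer1g, which myeloid cells also express. The B cell list held 1699 UMIs (0.226%, against 0.581%), 1629 of them of Cd74. The dendritic cell list took 0.0349% of UMIs in WT-labelled expanded cells (against 0.618%). It took 0.308% in KO-labelled expanded cells (against 0.601%), where 11 of its 12 genes were detected. All 14 macrophage and monocyte genes were detected there, at 0.111% of UMIs against 0.450% in clones seen once, and in the WT-labelled library, where C1qc was at 0 in expanded cells, at 0.182% against 0.288%. More than 0.5% of UMIs came from that list in 6 of 111 expanded cells and 19 of 148 cells seen once of the KO-labelled library, and in 1 of 22 and 10 of 198 of the WT-labelled library. The part of these transcripts in the lower values below was not tested. Depth differed too: expanded cells had a median of 5328 UMIs (1337 to 25389) and 1744 genes in the KO-labelled library, against 3640.5 UMIs and 1233 genes for cells seen once, while the WT-labelled medians were 3680 and 3653.5 UMIs.

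The 4 marker genes proposed for these cells were higher in expanded clones than in clones seen once in both libraries. They were chosen with earlier results of these data known. UMIs were summed over the cells of each side and divided by the sum of all UMIs, and a gene counted as higher or lower when this CPM differed by at least 1.5-fold, a rule of size and not a test. By this rule all 4 were higher in either library, where 18.4% of 6625 genes compared in the KO-labelled and 27.4% of 5120 in the WT-labelled library were. Over all genes the median log2 ratio was 0.11 and 0.13. Scaling without receptor, ribosomal and mitochondrial genes lowered every ratio by 0.053 in the KO-labelled and 0.16 in the WT-labelled library, where 1403 genes were higher and 946 lower before and 1058 higher and 1140 lower after. On the log2 scale the 4 genes had a median of 1.53 in the KO-labelled and 1.06 in the WT-labelled library. With the other scaling Nkg7 of the WT-labelled library, at 0.70 before, fell short of 1.5-fold, and the interval of Ifng there included 0.

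Nkg7 (ENSMUSG00000004612, chromosome 7, 43437138 to 43438246), a protein of cytotoxic granules, had 1899 CPM (1802 to 2000) in expanded cells and 753 (695 to 814) in cells seen once of the KO-labelled library. Its WT-labelled levels were 1004 CPM (809 to 1231) and 617 (569 to 669), and the intervals of the sides did not overlap in either library. The log2 ratios of expanded over seen once were 1.34 (1.20 to 1.47) and 0.70 (0.37 to 1.02). Ccl5 (ENSMUSG00000035042, chromosome 11, 83525778 to 83530518), a chemokine of effector and memory T cells, had 4626 CPM (4473 to 4782) in expanded cells against 1408 (1329 to 1491) in the KO-labelled library. In the WT-labelled library it had 6002 (5511 to 6526) against 2581 (2481 to 2684), log2 ratios of 1.72 (1.62 to 1.81) and 1.22 (1.08 to 1.35). Of the 550 Ccl5 UMIs in WT-labelled expanded cells, 410 came from the 6 CD8-gated cells, which held 19488 of the 91632 UMIs of all genes.

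Pdcd1 (ENSMUSG00000026285, chromosome 1, 94038305 to 94052553), which encodes the inhibitory receptor PD-1, had 223 CPM (190 to 259) in expanded cells and 58.7 (43.5 to 77.7) in cells seen once of the KO-labelled library. Its WT-labelled values were 295 CPM (194 to 429) and 34.0 (23.4 to 47.7), on 27 and 33 UMIs. The ratio was the larger in the WT-labelled library, at a log2 of 3.12 (2.33 to 3.90) against 1.92 (1.45 to 2.41) in the KO-labelled library, a difference that was not tested. Ifng (ENSMUSG00000055170, chromosome 10, 118441046 to 118445894), the cytokine interferon gamma, had 211 CPM (179 to 246) against 89.9 (70.7 to 113) in the KO-labelled library and 218 (133 to 337) against 117 (96.8 to 141) in the WT-labelled library. Its log2 ratios were 1.23 (0.82 to 1.64) and 0.90 (0.13 to 1.59). Among CD8-gated cells of the KO-labelled library the ratios of the 4 genes were 1.31 for Nkg7, 1.55 for Ccl5, 1.85 for Pdcd1 and 1.39 for Ifng. Without the 3 largest clones the ratio of Ccl5 was 0.21 in the KO-labelled library, and among the 10 Cd4-gated expanded cells there Nkg7 was at -0.22.

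Shares of cells with a UMI were compared at equal depth. After each cell was thinned to 1000 UMIs, Nkg7 was found in 84.6% of expanded and 58.1% of singly seen CD8-gated cells of the KO-labelled library (98.9% and 85.5% unthinned). Pdcd1 was found in 16.5% and 4.84% of them (58.2% and 14.5% unthinned). The WT-labelled library gave, over all TRB cells, 59.1% of expanded and 40.9% of singly seen cells for Nkg7, and 18.2% and 3.54% for Pdcd1. In its CD8 gate Nkg7 was found in 3 of 6 expanded cells (50%) and 51.8% of singly seen cells, and Ifng in 0 of 6 and 10.8%, numbers too small to give an order. As a background, thinned cells with at least 5 Lyz2 UMIs and C1qa but no Cd3 UMI had Nkg7 in 0.286% of 699 cells of the KO-labelled library (median 6351 UMIs) and in 0.351% of 854 of the WT-labelled library (median 8755.5). Pdcd1 was in none of either, which allows up to 0.526% and 0.431%.

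Values on both sides of the threshold of 2 cells differed by gene. Clones of 2 cells, just inside it, had 385 CPM of Nkg7 in the KO-labelled library against 753 in clones seen once, and 1130 against 1408 CPM of Ccl5, both below the cells just outside. Their Pdcd1 was at 164 against 58.7 CPM and their Xcl1 at 467 against 210. Clones of at least 10 cells had 2676 CPM of Nkg7, 9761 of Ccl5 and 297 of Gzmk. In the WT-labelled library clones of 2 cells had 1494 CPM of Nkg7 against 617 in clones seen once, and 4568 against 2581 of Ccl5. WT-labelled clones of 3 cells had 694 CPM of Nkg7 and 142 of Ifng, against 617 and 117 in clones seen once, so neither reached 1.5-fold in them.

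Many genes of killing were higher in expanded cells of the KO-labelled library, and many of inhibitory receptors in those of both libraries. In the WT-labelled library the killing genes lay near the shares of all genes. Of 16 cytotoxic granule genes compared in the KO-labelled library, 9 were higher and 3 lower, with a median log2 ratio of 0.71, against 4 higher and 3 lower of 14 and a median of 0.05 in the WT-labelled library, which the other scaling moved below 0. Background shares were 18.4% higher and 13.6% lower of all genes in the KO-labelled library, and 27.4% and 18.5% in the WT-labelled library. Gzmk, a granzyme of early effector cells, had 112 UMIs in expanded cells and 9 in cells seen once of the KO-labelled library (149 and 10.8 CPM, log2 ratio 3.79, 2.81 to 4.96), and 7 and 27 UMIs in the WT-labelled library (76.4 and 27.8 CPM, 1.46, 0.02 to 2.69). Fasl, the ligand of the death receptor Fas, had 54.6 and 18.0 CPM in the KO-labelled library (1.60, 0.72 to 2.56). Gzmb, the main granzyme of killer cells, was nearly level over all KO-labelled cells, at 62.6 and 53.9 CPM (0.22, -0.41 to 0.84). Within the CD8 gate Gzmb had 38 UMIs in expanded cells and 2 in cells seen once (3.55, 1.59 to 6.64). Lamp1 and Ctsc, lysosomal genes that many leukocytes express, were lower in expanded cells of the KO-labelled library, at log2 ratios of -1.33 and -1.66.

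Of 21 compared genes for inhibitory receptors or exhaustion, 10 were higher and 2 lower in KO-labelled expanded cells (median 0.58), and in the WT-labelled library 10 were higher and 0 lower of 17 (median 0.66). Lag3, an inhibitory receptor for MHC class II, had 125 and 38.4 CPM in the KO-labelled library (log2 ratio 1.71, 1.11 to 2.33). Havcr2, which encodes TIM-3, had 49.3 and 14.4 CPM (1.78, 0.81 to 2.85). Tox, a transcription factor of chronically stimulated T cells, had 156 and 45.6 CPM (1.78, 1.24 to 2.34), and Rgs16, a regulator of G protein signalling, 404 and 101 CPM (2.00, 1.65 to 2.37). All 4 ratios were larger in the CD8 gate, at 2.14, 2.47, 2.41 and 2.61. In the WT-labelled library these genes rested on 3 to 11 UMIs in expanded cells, and the intervals of Lag3, at 1.03 (-0.71 to 2.43), Tox, at 0.13 (-2.22 to 1.82), and Rgs16, at 0.89 (-0.18 to 1.83), included 0.

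Naive and memory genes were lower. In KO-labelled expanded cells 14 of 20 were lower and 1 higher (median -1.18), and in WT-labelled ones 14 of 20 lower and 2 higher (median -1.39). Il7r, the receptor for the survival cytokine IL-7, was at a log2 ratio of -2.36 (-3.04 to -1.74) in the KO-labelled and -1.18 (-2.33 to -0.23) in the WT-labelled library. Tcf7, a transcription factor of naive and stem-like T cells, was at -2.17 (-2.88 to -1.51) and -1.50 (-3.14 to -0.25).

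Most cell cycle genes were higher in expanded cells. Of 28, all but 1 were higher and 0 lower in the KO-labelled library (27 higher, median 1.23), H2afz at 0.31 falling short of 1.5-fold, and 13 of 20 higher and 0 lower in the WT-labelled library (median 0.81). Birc5, a mitotic survival protein, had 176 and 42.0 CPM in the KO-labelled library (log2 ratio 2.07, 1.52 to 2.65) and 76.4 and 23.7 in the WT-labelled library (1.69, 0.23 to 2.96). A UMI of the proliferation markers Mki67 or Top2a was present in 41 of 111 expanded and 20 of 148 singly seen KO-labelled cells (36.9% and 13.5%), and in 5 of 22 and 21 of 198 WT-labelled cells (22.7% and 10.6%). With each cell thinned to 1000 UMIs, Mki67 was found in 12.6% of expanded and 2.03% of singly seen KO-labelled cells, and in 0 of 22 (which allows up to 15.4%) and 1.01% of WT-labelled cells. Macrophage-gated cells had it in 2.29% and 3.86%.

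The metabolic genes around the targeted one differed little by expansion. Of 16 ATP synthase genes compared, 0 were higher or lower in KO-labelled expanded cells (median 0.24), and 2 were higher and 1 lower in the WT-labelled library (median 0.23). Of 62 nuclear genes of the respiratory chain, 1 was higher and 0 lower in the KO-labelled library (median 0.20), and 7 higher and 6 lower of 61 in the WT-labelled library (median 0.18). Glycolysis genes gave 0 higher and 3 lower of 18, against 2 higher and 1 lower of 16. Atpif1 itself was at a log2 ratio of 0.13 (-0.10 to 0.36) and of -0.23 (-1.01 to 0.46).

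The remaining lists are given by count. Over all genes, 18.4% were higher and 13.6% lower in expanded cells of the KO-labelled library, and 27.4% and 18.5% in those of the WT-labelled library. In the KO-labelled library interferon response genes were lower in expanded cells in 11 of 27 and higher in 1 (median -0.40), among them Ifit1, an interferon-induced RNA-binding protein, at -1.93 (-2.82 to -1.13). In the CD8 gate the same list gave 7 higher and 3 lower of 18 (median 0.19), where 28.8% of all genes were higher and 10.4% lower. WT-labelled expanded cells had 4 higher and 5 lower of 21. Effector and residence regulators were higher in 12 and lower in 4 of 32 KO-labelled genes, and 13 and 4 of 32 in the WT-labelled library. Genes of T cell activation and receptor signalling gave 1 higher and 5 lower of 26 in the KO-labelled library. In the WT-labelled library they gave 7 higher and 4 lower of 26, near the shares of all genes there. MHC class I presentation gave 2 higher and 0 lower of 18 in the KO-labelled library, and 3 and 0 of 18 in the WT-labelled library. T cell cytokines and chemokines gave 5 higher and 3 lower of 13 in the KO-labelled library, with Xcl1 at 1.89 (1.65 to 2.14). The WT-labelled library gave 3 higher and 4 lower of 10, and Xcl1 had 0 UMIs in its expanded cells against 68 in cells seen once.

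**Figure D2:**
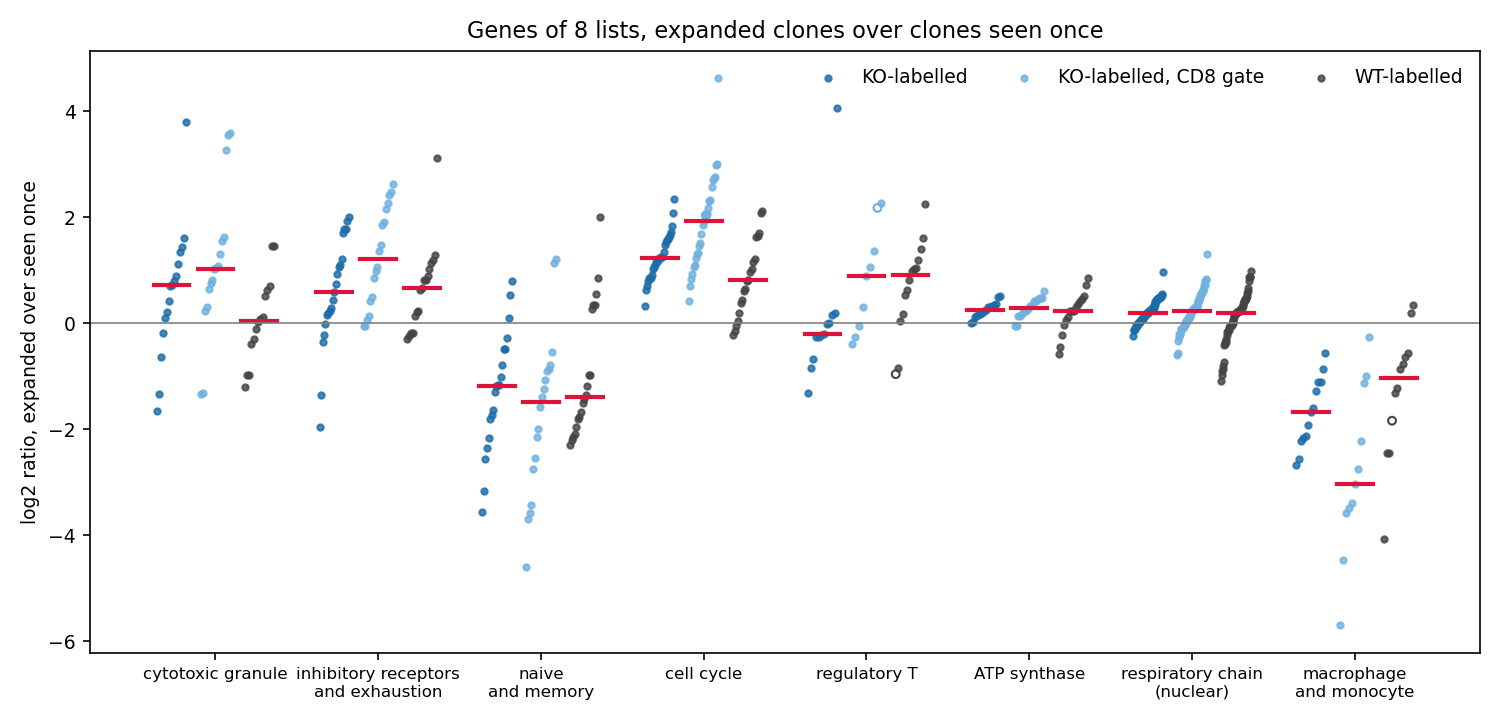
Log2 ratio of expanded clones over clones seen once (vertical axis) for the genes of 8 lists (horizontal axis), in the KO-labelled library, its CD8-gated cells and the WT-labelled library. Each point is a gene with at least 20 UMIs, and red lines are list medians. Open points are genes with no UMI on one side, placed as if that side had 3, or at 0 where that would change the sign. Nearly all cell cycle points lie above 0 and most naive and memory points below it, while ATP synthase and respiratory chain points stay near 0.

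Both libraries were then searched for genes that differed in the same direction. Of 2238 genes with at least 50 UMIs in each library, 111 had intervals above 0 in both and 81 below 0 in both. Ranked by the bound nearest 0, the highest was Cxcr6, a chemokine receptor of tissue-resident T cells, with 184 and 44.4 CPM in expanded cells and cells seen once of the KO-labelled library (log2 ratio 2.05, 1.52 to 2.62). Its WT-labelled values were 284 and 34.0 CPM (3.06, 2.26 to 3.85). Pdcd1 came next, then the replication factor Pclaf at 1.65 and 2.05, Ccl5, and the T cell membrane protein Ms4a4b at 1.23 and 1.30. The histone gene Hist1h2ap, which has near-identical copies, the chromatin protein Hmgb2, the nucleotide enzyme Dut and the nuclear envelope protein Tmpo are genes of dividing cells and lay at 1.76, 1.16, 1.94 and 0.93 in the KO-labelled library and at 1.38, 0.97, 1.28 and 1.66 in the WT-labelled library. The others were S100a10, Crip1, the lymphocyte transcription factor Ikzf3, Ptprcap, the integrin gene Itgal and Cd3g, with KO-labelled ratios of 0.61 to 1.23. Cd3g entered the rule for cells. In WT-labelled CD8-gated cells, of which 6 were expanded, Hist1h2ap was at -0.47 and Hmgb2 at -0.32. Without clones 1, 2 and 3 of that library, 3 of its 4 clones of 3 cells, they were at -1.07 and -0.024. With clones set by TRA and TRB, Hist1h2ap, Hmgb2 and Dut were at -1.71, -0.56 and -0.84 there.

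The 15 lowest in both libraries were mostly genes of antigen-presenting and myeloid cells. They were the inflammatory genes Il1b and Cxcl2, the complement genes C1qb and C1qc, the MHC class II genes H2-Aa, H2-Ab1 and H2-Eb1 with their chaperone Cd74, the signalling adaptors Tyrobp and Fcer1g, Tgfbi, Alox5ap, Ifitm3, Fabp5 and the transcription factor Jun. Cd74 had 2171 CPM in expanded cells and 5691 in cells seen once of the KO-labelled library (log2 ratio -1.39, -1.47 to -1.31), and 229 against 5479 in the WT-labelled library (-4.58, -5.27 to -3.97). Its UMIs in KO-labelled expanded cells sat in few barcodes, with 275 of the 280 of clone 4, 363 of the 365 of clone 9 and 112 of the 115 of clone 3 in 1 cell each. Without the barcodes scored as doublets the KO-labelled ratio of Cd74 was -3.74. Fabp5 turned round in the KO-labelled library, to 0.49 in CD8-gated cells, 0.11 with clones set by TRA and TRB and 0.84 without cells over 0.5% macrophage UMIs. H2-Aa and H2-Ab1 were at 0.13 and 0.15 there with clones weighted equally. In Cd4-gated KO-labelled cells C1qb, C1qc, Cd74, Tgfbi, H2-Eb1, Tyrobp and Fcer1g were above 0 as well. Over the 13 macrophage and monocyte genes compared, 12 were lower and 0 higher in the KO-labelled library (median -1.68) and 9 of 12 lower in the WT-labelled library (median -1.04).

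**Figure D3:**
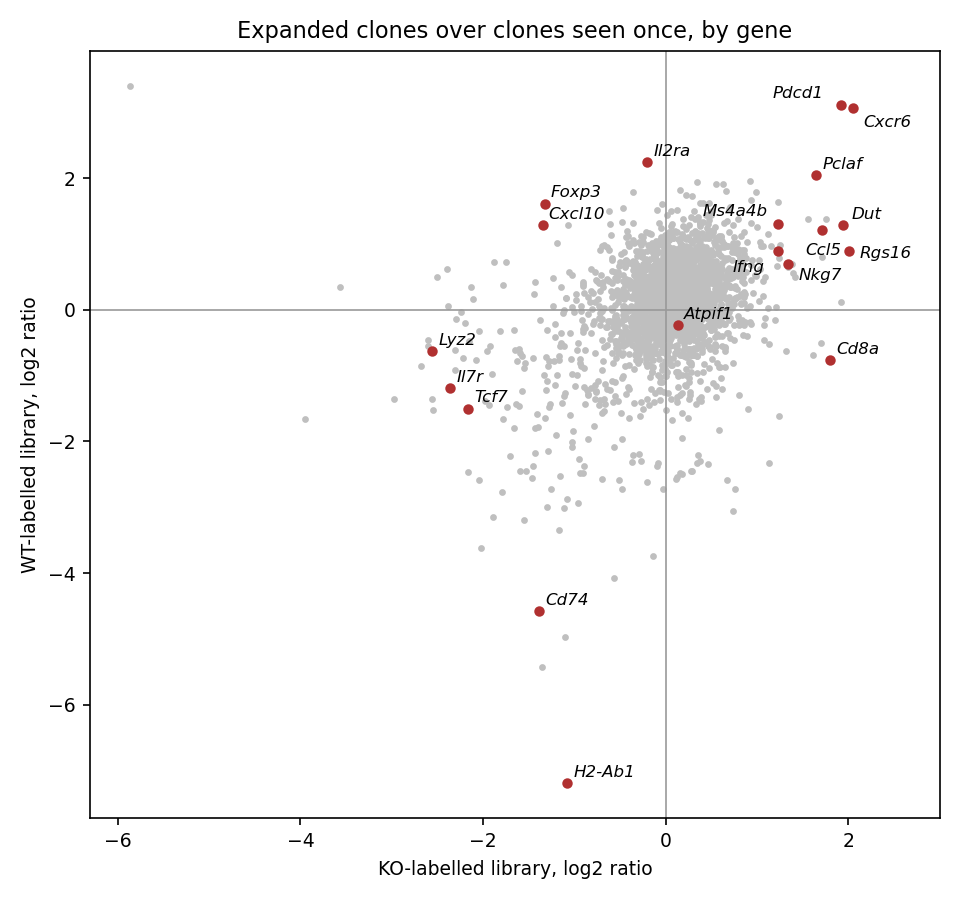
Log2 ratio of expanded clones over clones seen once in the KO-labelled library (horizontal axis) and in the WT-labelled library (vertical axis), for 2361 genes with at least 50 UMIs in each. Grey points are genes and red points are named. Pdcd1 and Cxcr6 lie above 0 in both, Tcf7, Il7r and Cd74 below 0 in both, and Foxp3, Cxcl10 and Cd8a have opposite signs.

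The expanded clones of the KO-labelled library did not share a single profile. Among the 7 clones of at least 6 cells, Ccl5, one of the marker genes, ranked first by dispersion over that of Poisson counting. This measure also rises with the number of UMIs of a gene, so it does not rank genes by fold. It had 9833, 10550, 7851 and 4329 CPM in clones 1, 2, 3 and 5, and 760, 424 and 698 in clones 4, 6 and 7. Xcl1 (ENSMUSG00000026573, chromosome 1, 164931644 to 164935522), a chemokine that draws cross-presenting dendritic cells, ran the other way, with 284, 115, 24.1 and 398 CPM in clones 1, 2, 3 and 5 and 2073, 2893 and 943 in clones 4, 6 and 7. All of these clones were mostly or wholly CD8-gated cells, and this grouping was noticed after the values were seen.

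Some other genes followed this division and some did not, and genes looked at after the division was seen do not test it. Ccl4, for 1, had 979, 552, 915 and 608 CPM in clones 1, 2, 3 and 5, and 2958, 189 and 736 in clones 4, 6 and 7. Gzmk (chromosome 13, 113171630 to 113180965) had 317, 299, 217 and 421 CPM in clones 1, 2, 3 and 5, and 10.4, 0 and 12.9 in clones 4, 6 and 7. Ctla2a, a protease inhibitor of activated T cells, had 682, 633, 723 and 983 CPM in the first set and 93.8, 31.4 and 12.9 in the second. Nrgn, which encodes the calmodulin-binding protein neurogranin, was at 0, 11.5, 0 and 0 CPM in clones 1, 2, 3 and 5 and at 1354, 1258 and 452 in clones 4, 6 and 7, with a UMI in all 7 cells of clone 6 and all 6 of clone 7. S100a6, a calcium-binding protein, lay between 1891 and 6599 CPM in the first set and at 2469, 314 and 568 in the second, so clone 4 stood apart from clones 6 and 7 there. Clone 9, of 3 cells, had 9894 CPM of Ccl5, 209 of Gzmk and 34.8 of Xcl1, and clone 12, of 2 cells, 2378 of Xcl1 and 514 of Nrgn with no Gzmk or Ccl5. Depth moved with the division: the median UMIs per cell were 5735, 3160, 2622 and 5034.5 in clones 1, 2, 3 and 5, and 11318, 6293 and 10131.5 in clones 4, 6 and 7, and its part was not tested.

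The CPM of Nkg7 and Pdcd1 spanned fewer fold over the 7 largest clones than that of Ccl5. Every cell of the 7 largest clones had a Nkg7 UMI, and clone levels ran from 1242 CPM in clone 6 to 3674 in clone 5. Pdcd1 lay between 140 and 323 CPM in these 7 clones, with overlapping Poisson intervals, and the lower limit of each but clone 5 was above the 58.7 CPM of clones seen once. Ifng lay between 110 CPM in clone 6 and 337 in clone 3. Of the clones with Cd4-gated cells, clone 8 had 494 CPM of Nkg7, 0 of Ifng and 772 of Nrgn, and 3612 of the chemokine Ccl1 from 117 UMIs in 1 of its 4 cells. Clone 10, of 3 cells, had 1384 CPM of Nkg7, 461 of Ifng and 0 of Nrgn.

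**Figure D4:**
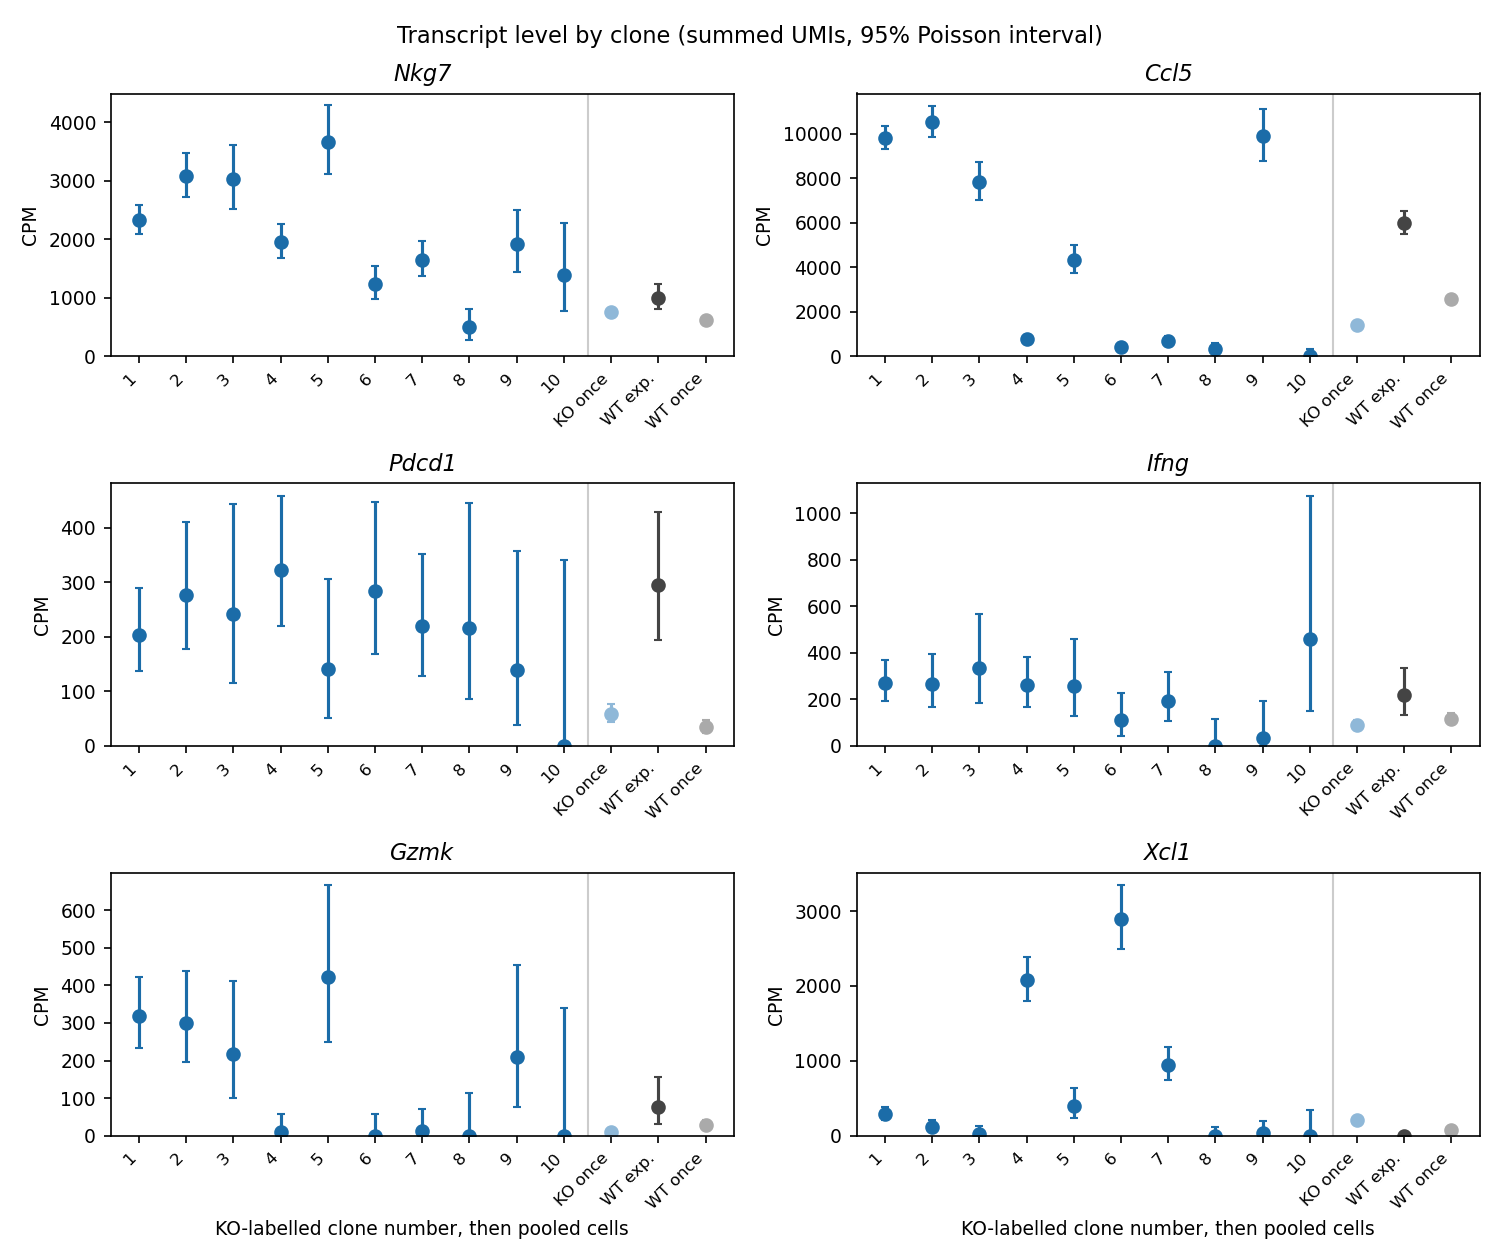
CPM of 6 genes (vertical axes) in the 10 largest expanded clones of the KO-labelled library and in pooled cells of KO-labelled clones seen once, WT-labelled expanded clones (exp.) and WT-labelled clones seen once (horizontal axes), from summed UMIs with 95% Poisson intervals. Ccl5 and Gzmk are high in clones 1, 2, 3, 5 and 9, and Xcl1 is high in clones 4, 6 and 7, while Pdcd1 of the 7 largest clones lies between 140 and 323 CPM.

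A single receptor was met in expanded clones of both libraries at the level of the protein. KO-labelled clone 11, of 2 cells, and WT-labelled clone 2, of 3 cells, used TRBV10 and TRBJ2-5 and encoded the same 11 amino acids with 1 differing base, C15A, counted from 1 at the 5′ end with the KO-labelled base first. Their alpha chains, on chromosome 14, used TRAV13-2 and TRAJ26 and encoded the same 14 amino acids, again with 1 differing base, G15A. The sequences are shown with the differing base in capitals.
KO-labelled clone 11, TRB: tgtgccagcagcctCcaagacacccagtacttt
WT-labelled clone 2, TRB: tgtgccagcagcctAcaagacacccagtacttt
KO-labelled clone 11, TRA: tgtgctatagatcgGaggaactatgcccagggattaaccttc
WT-labelled clone 2, TRA: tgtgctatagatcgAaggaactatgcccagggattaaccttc
The alpha chain was read in 1 of the 2 KO-labelled and 2 of the 3 WT-labelled cells. The receptor data marked the barcode as a cell in 1 of the 2 KO-labelled and 2 of the 3 WT-labelled cells. With contigs marked as from a cell alone, KO-labelled clone 11 was a clone seen once, and 15 expanded clones remained in that library. In all, 3 TRB amino acid sequences occurred in both libraries, each with other bases, of 166 in the KO-labelled and 214 in the WT-labelled library, and the other two were of clones seen once in each.

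The cells of this shared receptor carried regulatory T cell transcripts and no Nkg7. Foxp3, the regulatory lineage factor, had 4 UMIs in 1 of 2 cells of KO-labelled clone 11 (111 CPM) and 11 in 3 of 3 cells of WT-labelled clone 2 (536 CPM). Ikzf2, the factor Helios, had 20 UMIs (555 CPM) and 10 (487 CPM). Il2ra, the high-affinity IL-2 receptor chain, had 11 UMIs (305 CPM) and 22 (1072 CPM). Areg, a tissue repair factor, had 21 and 9 UMIs, and Klrg1, a receptor of differentiated T cells, 19 and 6. Neither Nkg7 nor Cd4 had a UMI in either clone, and 1 of the 2 cells of KO-labelled clone 11 had a single UMI of Cd8b1. Stmn1, a gene of dividing cells, had 39 and 17 UMIs.

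Over all expanded cells regulatory genes differed between the libraries. Foxp3 had 18.7 CPM in expanded cells and 46.7 in cells seen once of the KO-labelled library (log2 ratio -1.33, -2.32 to -0.41), and 164 against 53.5 in the WT-labelled library (1.61, 0.68 to 2.46). Il2ra had 42.6 and 49.1 CPM in the KO-labelled library (-0.20, -0.92 to 0.50) and 273 and 57.6 in the WT-labelled library (2.24, 1.501 to 2.95), where 22 of its 25 UMIs and 11 of the 15 of Foxp3 came from clone 2. Of the regulatory T cell list, 1 gene was higher and 3 lower of 12 in the KO-labelled library, and 9 higher and 2 lower of 14 in the WT-labelled library.

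Expanded cells of the libraries were last set side by side. Their lineage make-up differed, with 82.0% CD8-gated cells in the KO-labelled and 27.3% in the WT-labelled library, so which cells expanded and what a cell of 1 lineage expressed cannot be told apart. With 1 library of mixed mice each, genotype and library cannot be told apart either. Of 4663 genes compared, 24.2% were at least 1.5-fold higher and 20.1% lower in the KO-labelled expanded cells, with a median log2 ratio of 0.02. Among the 4 markers, Nkg7 was higher (log2 ratio 0.92, 0.61 to 1.24), and Ccl5 at -0.38 (-0.51 to -0.24), Pdcd1 at -0.40 (-0.997 to 0.24) and Ifng at -0.05 (-0.73 to 0.70) were within 1.5-fold. In CD8-gated expanded cells, of which 6 were WT-labelled, Nkg7 had 2148 CPM in the KO-labelled and 2309 in the WT-labelled library, a ratio of -0.10 (-0.53 to 0.36). Ccl5 had 5860 and 21039 CPM in that gate and was there more than 1.5-fold lower in the KO-labelled library (-1.84, -1.99 to -1.69). Pdcd1 at 0.43 (-1.16 to 2.72) and Ifng at -0.23 (-1.49 to 1.42) rested on 3 and 5 WT-labelled UMIs. In cells of clones seen once the 4 ratios were 0.29, -0.87, 0.79 and -0.38.

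Xcl1 ranked first, with 584 UMIs (778 CPM) in KO-labelled expanded cells and none in WT-labelled ones. With a floor of 3 UMIs over the group in place of the 0, this is a log2 ratio of 4.57, and the exact interval starts at 4.27. Nrgn had 279 and 0 UMIs (3.51 with the floor, interval from 3.20) and Ccl1 165 and 0 (2.75, from 2.43). The same genes were also higher in KO-labelled cells seen once, at 1.58 for Xcl1, 4.39 for Nrgn and 2.56 for Ccl1. For Ccl1, 117 of the 165 UMIs of expanded cells and 210 of the 222 of KO-labelled cells seen once came from 1 cell each. Cd8a had 542 and 65.5 CPM in expanded cells (3.05, 1.92 to 4.50), and the macrophage inflammatory chemokine Ccl3 441 and 87.3 (2.34, 1.34 to 3.56), though in CD8-gated cells Ccl3 had 281 and 359 CPM (-0.35, -1.43 to 0.98). H2-Ab1, H2-Eb1, H2-Aa and Cd74 lay at 6.13, 4.22, 3.86 and 3.24, on 1 to 21 UMIs in WT-labelled cells, and without scored doublets H2-Ab1 was at 2.49 and Cd74 at 0.61. Plac8 closed the list at 3.81.

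The lowest was Il2ra at -2.68 (-3.48 to -1.86), followed by Apoe at -2.31, the chemokine gene Ccl7 at -2.36 and Cxcl10, an interferon-induced chemokine, at -1.77. Ifrd1, Cxcl2, the activation marker Cd69, the interferon gamma receptor gene Ifngr1, the macrophage lysozyme gene Lyz2 and Zfp36l1 lay between -1.61 and -1.23. Without the 3 largest clones of each library Il2ra was at 0.078 and Cxcl2 at 0.39, and in CD8-gated cells Cxcl10 was at 1.29, so these 3 turned round. The clones left out of the WT-labelled library, 1, 2 and 3, were taken by sequence order from 4 clones of 3 cells. Clone 2 among them held most of the Il2ra UMIs of WT-labelled expanded cells. In Cd4-gated cells Il2ra, Cxcl10, Ifrd1 and Zfp36l1 turned round. Apoe, Ccl7, Cxcl2 and Lyz2 are genes of myeloid cells, and the macrophage list took 0.111% of UMIs in KO-labelled and 0.182% in WT-labelled expanded cells, a difference whose part in these ratios was not tested.

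By list, 19 of 27 cell cycle genes were higher and 0 lower in KO-labelled than in WT-labelled expanded cells (median 0.95), and 13 of 26 were in cells seen once (median 0.62, with 14.5% of all genes higher and 9.5% lower there). Inhibitory and exhaustion genes gave 9 higher and 3 lower of 18 (median 0.49), with Tox at 156 and 32.7 CPM (2.25, 0.67 to 4.55) and Rgs16 at 404 and 120 (1.75, 0.89 to 2.77). In cells seen once that list gave 9 higher and 0 lower of 21 (median 0.48). Respiratory chain genes were higher in 25 and lower in 1 of 62 (median 0.43), and in cells seen once in 10 and 1 of 62 (median 0.36). ATP synthase genes were higher in 5 and lower in 0 of 16 (median 0.27), and in 1 and 0 of 16 in cells seen once (median 0.37). Glycolysis genes gave 1 higher and 5 lower of 15 (median -0.37), against 0 and 0 of 18 in cells seen once. Atpif1 was higher on both sides, at 1.08 (0.39 to 1.85) in expanded cells and 0.72 (0.47 to 0.97) in cells seen once.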

How the data were processed

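The authors deposited, per library, raw UMI counts per gene and barcode over 737280 barcodes and 31053 genes, and tables of receptor contigs. Cell Ranger 3.1.0, Seurat 3.2.0, R 3.6.1 and the build mm10 stand in the submitters' processing notes, and Cell Ranger also in the file headers. All barcodes together held 24385843 UMIs in the KO-labelled and 35152477 in the WT-labelled library. Those counts were joined to the contigs by barcode. UMIs were summed over the cells of each side, and ratios were computed for genes with at least 20 UMIs on both sides together, with exact conditional binomial intervals, exact Poisson intervals for CPM and exact Clopper-Pearson intervals for shares. A side without UMIs was set to 3 counts. The step was tested on simulated data.

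Members, markers and 25 gene lists (446 of 449 genes found) were chosen with earlier results of these data known. Genes were named as markers, as list examples, as the 15 highest and 15 lowest in both libraries among genes with at least 50 UMIs in each, without receptor segments, ribosomal, mitochondrial and unnamed gene models, or as the 10 highest and 10 lowest between libraries, by the interval bound nearest 0. Genes of single clones (Ctla2a, S100a6, Areg, Klrg1) were chosen after their values were seen. No doublets were removed, and removal was an alternative. Alternatives changed the clone definition, cell filters, doublets, lineage, weights, depth, scaling and the count minimum. Coordinates come from RefSeq's GRCm38.p6 table, and Python 3.11.15 with numpy 2.4.6, scipy 1.17.1, pandas 2.3.3, scikit-learn 1.9.0, networkx 3.6.1 and matplotlib 3.10.9 was used.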

Additional observations from a re-analysis of the deposited data

Results flagged for a closer look

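4 results were flagged for opposite directions in the libraries, and none of these differences was tested. The genes among them were list genes with at least 50 UMIs, a UMI on both sides and intervals on opposite sides of 0. Xcl1 fell outside this rule though its directions were opposite too. It was at 1.89 in the KO-labelled library and had 0 UMIs in WT-labelled expanded cells against 68 in cells seen once. Cxcl10, an interferon-induced chemokine, had a log2 ratio of expanded clones over clones seen once of -1.35 in the KO-labelled library (84 and 238 UMIs) and of 1.29 in the WT-labelled library (35 and 152 UMIs). Ly6a, a surface protein induced by interferon and activation, was at -0.60 and 1.14. In CD8-gated cells of the KO-labelled library both ratios were above 0, at 0.13 for Cxcl10 and 0.77 for Ly6a. Foxp3 was at -1.33 and 1.61, and 11 of its 15 UMIs in WT-labelled expanded cells came from the 3 cells of clone 2. The CD8 lineage genes Cd8a and Cd8b1 had a median of 1.75 in the KO-labelled and -0.63 in the WT-labelled library. In WT-labelled expanded cells they held 21 UMIs together, and the interval of Cd8a there, at -0.76 (-2.24 to 0.41), included 0.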

How the results depend on the processing

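Without replicate libraries, agreement across settings says nothing about other mice, and 22 WT-labelled expanded cells limit every ratio that uses them. Of 1692 alternative values of 87 named gene results, 1324 stayed within the 95% counting interval of the value reported, 326 left it and 42 past 1.5-fold turned round. Of 152 alternative shares and counts, 119 stayed within that interval or within 1.5-fold. The settings by Cd4 gate, without the 3 largest clones and without barcodes over 0.5% macrophage UMIs were chosen after seeing the data. In the WT-labelled library 4 clones tied at 3 cells, and sequence order decided which were left out as largest: clone 1, or clones 1, 2 and 3. No paired analysis was possible because each genotype has 1 library. The cause of each change below was not tested, except that fewer genes or cells enter many settings.

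The expanded share in the KO-labelled library was 59.5% of CD8-gated and 27.8% of Cd4-gated cells, 36.5% without the largest clone and 25.6% without the 3 largest. That in the WT-labelled library was 5.45% with clones of at least 3 barcodes, 19.4% of Cd4-gated cells and 6.16% without the 3 largest clones. Genes higher and lower in expanded cells numbered, in the KO-labelled library, 1219 and 899, against 347 and 208 after thinning, 541 and 336 with at least 50 UMIs and 295 and 258 in Cd4-gated cells, and 493 were lower in CD8-gated cells. In the WT-labelled library they numbered 1403 and 946, against 586 and 571 with TRA and TRB sets, 748 and 379 in CD8-gated and 218 and 262 in Cd4-gated cells, 343 and 239 after thinning, 518 and 379 with at least 50 UMIs and 1058 and 1140 with the other scaling. Between libraries 1130 and 937 genes were higher and lower in KO-labelled expanded cells, against 702 and 512 with TRA and TRB sets, 207 and 143 in Cd4-gated cells, 211 and 153 after thinning and 459 and 315 with at least 50 UMIs, and 509 were higher in CD8-gated cells.

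Genes that turned round are given by log2 ratio. With TRA and TRB sets, Fabp5 in the KO-labelled library was at 0.11, and in the WT-labelled library Hist1h2ap at -1.71, Hmgb2 at -0.56, Dut at -0.84 and Fcer1g at 0.071. Cxcl2 in the WT-labelled library was at 0.43 without scored doublets. CD8-gated cells gave Fabp5 at 0.49 in the KO-labelled library, Hist1h2ap at -0.47 and Hmgb2 at -0.32 in the WT-labelled library, and between libraries Ccl3 at -0.35, Cxcl10 at 1.29 and Nkg7 at -0.10. With clones weighted equally, H2-Aa was at 0.13 and H2-Ab1 at 0.15 in the KO-labelled library, and without cells over 0.5% macrophage UMIs Fabp5 was at 0.84 there. Without the 3 largest clones, Hist1h2ap was at -1.07 and Hmgb2 at -0.024 in the WT-labelled library, and Il2ra at 0.078 and Cxcl2 at 0.39 between libraries. Cd4-gated cells gave in the KO-labelled library Hmgb2 at -0.71, Ikzf3 at -0.84, Ptprcap at -0.31, Tmpo at -0.35, Nkg7 at -0.22, C1qc at 1.04, Cd74 at 0.065, Tgfbi at 0.15, H2-Eb1 at 0.51, Fabp5 at 1.15, H2-Aa at 0.70, H2-Ab1 at 0.24, Tyrobp at 0.38, C1qb at 1.07 and Fcer1g at 0.88. In the WT-labelled library they gave Hmgb2 at -1.42, S100a10 at -0.16 and Ifitm3 at 0.23, and between libraries Il2ra at 0.91, Cxcl10 at 1.37, Ifrd1 at 1.08, Zfp36l1 at 0.17 and Nkg7 at -0.77. Over all alternatives run, some with under 20 UMIs of the gene, Pdcd1 stayed between 1.69 and 3.15 in the KO-labelled and between 2.58 and 4.92 in the WT-labelled library, and Cxcr6 between 1.33 and 2.29 and between 2.64 and 4.70.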

Other observations

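Of the 17 genes of a list for innate-like and invariant T cells, 3 had enough UMIs to be compared in the KO-labelled library, 1 higher and 1 lower in expanded cells. Tcrg-C2, a constant segment of the gamma chain, had 64 UMIs in KO-labelled expanded cells and 6 in cells seen once (log2 ratio 3.57). Gamma chain constant segments resemble each other, so the count may hold reads of the others. An alpha chain of TRAV11 and TRAJ18, the segments of invariant natural killer T cells, was read with identical bases in 1 cell of each library, and both cells were of clones seen once.
The sequence shared by the libraries, on chromosome 14 and read 5′ to 3′, has no marked bases.
TRAV11 with TRAJ18: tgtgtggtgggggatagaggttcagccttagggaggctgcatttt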
